A study of Homo sapiens with 60 samples.

Results

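HT29 cells given the high dose (500 µg/mL) of an ethanol extract of Atractylodis Rhizoma, the dried rhizome of Atractylodes plants, were compared with HT29 cells given its medium dose (100 µg/mL). HT29 is a line of human colorectal adenocarcinoma cells. The comparison covers the last 5-fold step of a 3-dose series and takes in 3 libraries per dose, 6 of the 60 libraries of the series. Those libraries were picked by their labels. The comparison and the gene lists used below were chosen with earlier results of these data known. All cells were treated for 24 h and their RNA was sequenced. The series also holds 3 doses of each of several other herbal extracts, not all at these concentrations, and 3 libraries of cells given vehicle. Of these, the low dose of Atractylodes (20 µg/mL, 3 libraries), the high and medium doses of Poria (a medicinal fungus) and of Ginseng, again as ethanol extracts at 500 and 100 µg/mL with 3 libraries each, and the vehicle libraries are used here. The vehicle was DMSO, at 0.1% by the sample labels and at 2% by the series text, and the treatment labels of the extracts name no DMSO. The extracts were made with 70% ethanol, and their constituents are not described in the labels.

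The results below turn on 3 well-known transcription programmes. NRF2 is a transcription factor that KEAP1 keeps low until electrophiles or oxidants modify KEAP1. It then binds antioxidant response elements and switches on genes for glutathione synthesis, NADPH supply and the reduction of carbonyls and quinones. LXR is a nuclear receptor for oxysterols that switches on cholesterol export genes. SREBP2 is a membrane-bound factor that is cut loose when sterols run low and switches on the enzymes of cholesterol synthesis and the uptake of LDL, and the cut is held back when sterols are plentiful.

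The 6 libraries held 25.6 M to 26.4 M counts each, and the 60 libraries of the series 19.3 M to 29.6 M. Whether the 3 libraries of a dose stem from separate cultures is not stated in the labels. The p-values therefore rest on the spread among libraries, which could be purely technical. The titles of vehicle and of all extracts name the same batch, BatchC. The sample names of Atractylodes and Poria begin with 9, those of Ginseng with 10 and those of vehicle with a letter. The labels do not say what these beginnings stand for. Vehicle values are given as levels only and were not tested against treated cells. On the first principal component of the 9 Atractylodes libraries, which held 31.7% of the variance, the high dose lay at 4.44 to 8.41 and the medium dose at -2.28 to 0.28, and low dose library 3 stood apart from the other low dose libraries at -9.8. The 10 epithelial identity genes of HT29 summed to 12736 to 12968 CPM at the high dose and to 13058 to 13837 CPM at the medium dose, where CPM is the count scaled to a common library total. The 7 fibroblast markers summed to 1.52 to 2.12 CPM at the high dose and to 1.86 to 2.05 CPM at the medium dose, with 4 of 7 and 3 of 7 at 0 in all libraries of the dose. The 5 endothelial markers summed to 2.17 to 3.04 CPM at the high dose and to 2.05 to 2.55 CPM at the medium dose, and KDR was at 0 in all 6 libraries. The 6 leukocyte markers summed to 1498 to 1593 CPM at the high dose and to 1402 to 1427 CPM at the medium dose. Nearly all of that sum was lysozyme (LYZ), at 1487, 1556 and 1583 CPM at the high dose and 1413, 1417 and 1391 CPM at the medium dose, and CD3E was at 0 in all 6 libraries. The part of these markers in the results was not tested.

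Genes of the NRF2 programme and of LXR rose over the step, and genes of cholesterol synthesis fell. Of 16445 tested genes, 125 were higher and 113 lower at the high dose, by edgeR's quasi-likelihood test with a Benjamini-Hochberg adjusted p below 0.05. That is 1.45% of all tested genes called in either direction, 0.76% higher and 0.687% lower. Most changes were small. The rises had a median log2 fold change of 0.27 and reached 1.46, with 5 of 125 over 2-fold, and the falls had a median of -0.31 and reached -2.30, with 3 of 113 over 2-fold. The 3 high and 3 medium dose libraries did not overlap in 125 of the 125 rises and in 112 of the 113 falls, while 19.2% of all tested genes did not overlap, 9.32% higher and 9.84% lower at the high dose. In these bulk samples, fewer cells of a kind and less RNA per cell cannot be told apart.

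Mitochondrial transcripts took 6.27% ± 0.443 of counts at the high dose and 5.59% ± 0.132 at the medium dose (SD, n = 3 each), with no overlap between the doses. With that share as a covariate 277 genes were called, of which 221 were among the 238. The main fit did not pair libraries by replicate number. With these numbers as a block 334 genes were called, of which 237 were among the 238. Leaving out 1 library lowered the number from 238 to between 140 and 184. It was 141 without high dose library 1, 155 without high dose library 2, 155 without high dose library 3, 140 without medium dose library 2 and 146 without medium dose library 3, each more than 1.5 times below 238.

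**Figure D1:**
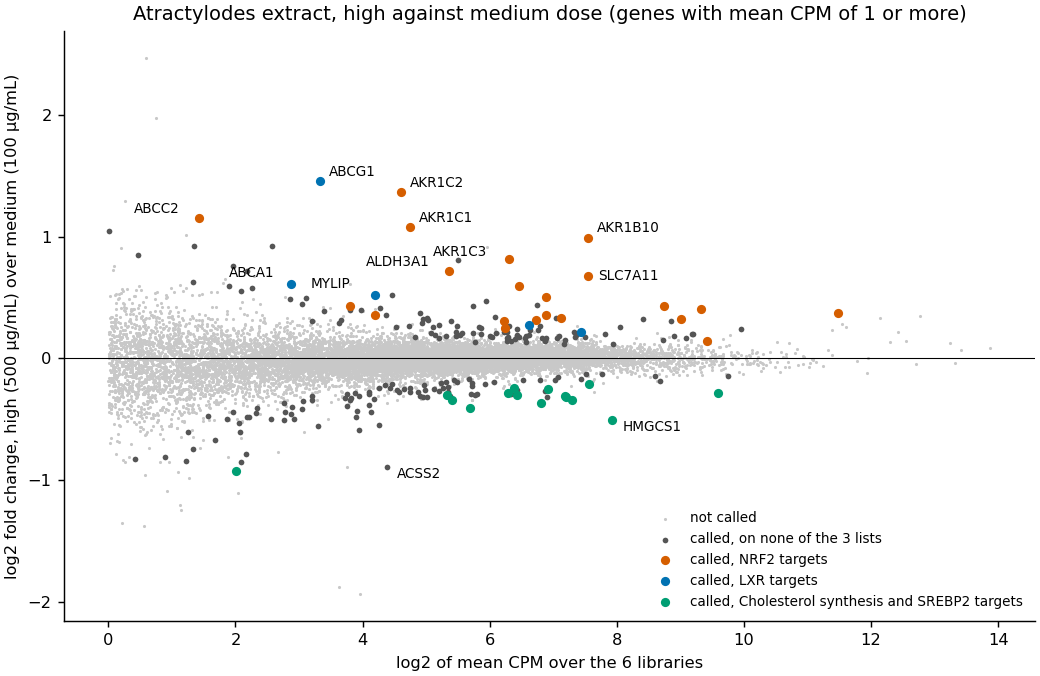
Each point is 1 of 13171 genes with a mean of at least 1 CPM over the 6 libraries. The x axis gives the log2 of that mean and the y axis the log2 fold change, high dose over medium dose. Called genes are dark, called members of 3 gene lists are coloured, and genes not called, list members among them, are light grey. ABCG1 is highest among the coloured points at 1.46. Called or not, all NRF2 targets and 7 of 8 LXR targets have a log2 fold change above 0. All genes of cholesterol synthesis but PMVK (0.02) have one below 0. Of the 238 called genes 235 are plotted and 3 are below 1 CPM.

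Of 28 NRF2 targets, all tested, 21 rose and 0 fell over the step, with a median log2 fold change of 0.36 against 0.00 over all tested genes. The aldo-keto reductases, which reduce carbonyl compounds with NADPH, were among the members that rose most. AKR1C2 (ENSG00000151632, chr10:4987400-5018031, - strand; coordinates of genes are those of GENCODE 29 on GRCh38) was at 37.1, 34.7 and 32.95 CPM at the high dose, against 13.7, 14.5 and 12.5 CPM at the medium dose. The lowest high dose library was above every medium dose library by more than 2-fold, and the log2 fold change was 1.37 ± 0.07 (SE, adjusted p = 1.1e-18). AKR1C1 (ENSG00000187134, chr10:4963253-4983283, + strand) was at 36.7, 37.2 and 35.5 CPM at the high dose and 18.2, 16.7 and 16.8 CPM at the medium dose, and rose by 1.08 ± 0.06 (SE, adjusted p = 4.9e-18). AKR1B10 (ENSG00000198074, chr7:134527592-134541408, + strand) was at 261, 236 and 250.4 CPM at the high dose and 134, 123 and 117 CPM at the medium dose. None of its libraries overlapped between the doses, and it rose by 0.99 ± 0.06 (SE, adjusted p = 1.1e-18). AKR1C3 was at 104, 106 and 92.9 CPM at the high dose and 59.4, 56.2 and 56.5 CPM at the medium dose, and rose by 0.82 ± 0.08 (SE, adjusted p = 8.1e-10). The AKR1C genes are near-identical copies, and how the authors' counting split reads between AKR1C1 and AKR1C2 makes each single value uncertain.

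Cystine uptake and glutathione synthesis rose together with them. SLC7A11, the cystine transporter subunit xCT, was at 233, 233 and 222 CPM at the high dose and 148, 141 and 142 CPM at the medium dose, and rose by 0.68 ± 0.07 (SE, adjusted p = 2.2e-10). GCLM, the modifier subunit of glutamate-cysteine ligase, was at 111, 103 and 103 CPM at the high dose and 76.4, 67.05 and 67.00 CPM at the medium dose, and rose by 0.60 ± 0.06 (SE, adjusted p = 4.9e-09). In both genes medium dose library 1 was the highest of its dose and still lay below every high dose library. GCLC, the catalytic subunit, rose by 0.50 ± 0.07 (SE, adjusted p = 2e-06), and GSR, which regenerates glutathione, by 0.25 ± 0.04 (SE, adjusted p = 8.6e-05). GPX2, an intestinal glutathione peroxidase, was at 0.19 ± 0.07 (SE, adjusted p = 0.28) and did not pass.

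Among the enzymes of reduction and detoxification, ALDH3A1, an aldehyde dehydrogenase, was at 49.98, 51.9 and 51.1 CPM at the high dose and 31.9, 32.1 and 29.2 CPM at the medium dose, and rose by 0.72 ± 0.05 (SE, adjusted p = 4.8e-15). NQO1, which reduces quinones, was at 742, 727 and 728 CPM at the high dose and 567, 550.1 and 545 CPM at the medium dose, and rose by 0.40 ± 0.04 (SE, adjusted p = 6.9e-11). The 3 libraries of each dose lay close together in both genes and far from those of the other dose. TXNRD1, thioredoxin reductase, rose by 0.43 ± 0.07 (SE, adjusted p = 7e-05) and SRXN1, sulfiredoxin, by 0.31 ± 0.06 (SE, adjusted p = 0.001). HMOX1, which breaks down heme, rose by 0.43 ± 0.09 (SE, adjusted p = 0.0018), and FTL, the ferritin light chain, by 0.37 ± 0.09 (SE, adjusted p = 0.013). The efflux pump ABCC2 was low, at 4.34, 3.37 and 3.42 CPM at the high dose and 1.66, 1.93 and 1.41 CPM at the medium dose, and rose by 1.15 ± 0.20 (SE, adjusted p = 0.00023).

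Of the genes that supply NADPH, ME1, the cytosolic malic enzyme, rose by 0.36 ± 0.04 (SE, adjusted p = 1.2e-09), and TKT, the transketolase of the pentose phosphate pathway, by 0.15 ± 0.04 (SE, adjusted p = 0.029). PGD at 0.05 ± 0.04 (SE, adjusted p = 0.72) and TALDO1 at 0.02 ± 0.05 (SE, adjusted p = 0.92), of the same pathway, did not pass. The other 4 members that did not pass were TXN, PRDX1, FTH1 and CBR1, with log2 fold changes of 0.12, 0.11, 0.14 and 0.10. The whole list stayed at 17 to 21 called members when any 1 of the 6 libraries was left out, and at 21 with mitochondrial share in the fit.

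The antioxidant response element was looked for in the promoter windows of the list, since its members moved together. RefSeq windows on GRCh38.p14, 250 bases before to 50 after the start of a gene, were matched for 20 of the 28 members. The letters searched were TGACNNNGC on both strands, with no overlap between matches in the windows shown, and 6 of the 20 windows held them, against 13.56% of 27305 windows. The 3 windows below belong to members that rose over the step, and capitals mark each match. They lie at chr1:93909381-93909680 on the minus strand for GCLM, chr6:83431002-83431301 on the minus strand for ME1 and chr12:104215529-104215828 on the plus strand for TXNRD1, and each reads 5′ to 3′ along the gene.
GCLM: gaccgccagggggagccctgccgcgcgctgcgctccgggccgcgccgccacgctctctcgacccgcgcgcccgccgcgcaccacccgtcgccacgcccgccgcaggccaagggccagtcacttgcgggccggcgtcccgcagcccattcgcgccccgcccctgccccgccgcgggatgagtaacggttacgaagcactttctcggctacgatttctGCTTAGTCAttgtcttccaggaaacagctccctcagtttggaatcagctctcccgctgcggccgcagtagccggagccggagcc
ME1: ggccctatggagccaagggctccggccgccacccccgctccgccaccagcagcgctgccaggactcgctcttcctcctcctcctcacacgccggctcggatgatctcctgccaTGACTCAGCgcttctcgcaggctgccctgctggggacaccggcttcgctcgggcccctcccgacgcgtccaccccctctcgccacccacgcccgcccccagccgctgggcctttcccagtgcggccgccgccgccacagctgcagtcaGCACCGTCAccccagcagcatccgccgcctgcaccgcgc
TXNRD1: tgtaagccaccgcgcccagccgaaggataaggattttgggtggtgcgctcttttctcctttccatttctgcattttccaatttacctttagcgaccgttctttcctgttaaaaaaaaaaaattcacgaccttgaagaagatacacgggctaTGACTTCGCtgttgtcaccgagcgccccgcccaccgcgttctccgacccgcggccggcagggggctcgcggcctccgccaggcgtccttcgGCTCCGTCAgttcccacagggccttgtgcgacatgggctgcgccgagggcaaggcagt
GCLM has 1 match, on the strand opposite to the gene, and ME1 and TXNRD1 have 2 each, 1 on either strand. The windows of NQO1, AKR1C1, AKR1C2 and SRXN1, which also rose, held no match, which says only that these letters are not in those windows. PGD, GPX2 and CBR1 hold a match and did not pass the test over this step. A match is not a measured binding site.

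LXR targets rose over the step in 5 of 8 tested members, with 0 lower and a median log2 fold change of 0.25. ABCG5 and ABCG8 did not pass the filter on low counts. ABCG1 (ENSG00000160179, chr21:42199689-42297244, + strand), which exports cholesterol to HDL, had the largest rise of all genes named here. It was at 4.73, 3.51 and 3.28 CPM with vehicle, 3.80, 3.98 and 3.48 CPM at the low dose, 5.02, 5.37 and 5.70 CPM at the medium dose and 16.01, 14.1 and 14.1 CPM at the high dose. Every high dose library was more than 2-fold above every medium dose library, and the log2 fold change was 1.46 ± 0.11 (SE, adjusted p = 2.7e-13). ABCA1 (ENSG00000165029, chr9:104781002-104928237, - strand), which exports cholesterol to lipid-poor APOA1, was at 8.48, 8.19 and 9.81 CPM at the high dose and 5.02, 5.95 and 6.35 CPM at the medium dose, and rose by 0.61 ± 0.12 (SE, adjusted p = 0.0012). The doses did not overlap.

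MYLIP (ENSG00000007944, chr6:16129125-16148248, + strand), a ubiquitin ligase that limits lipoprotein uptake, was at 21.3, 21.2 and 22.6 CPM at the high dose and 14.6, 16.3 and 14.6 CPM at the medium dose. The 3 high dose libraries agreed closely and lay above all medium dose libraries, and it rose by 0.52 ± 0.07 (SE, adjusted p = 3.6e-06). LPCAT3, which puts polyunsaturated fatty acids into phospholipids, rose by 0.27 ± 0.07 (SE, adjusted p = 0.016). SREBF1, which encodes SREBP1 and is switched on by LXR, rose by 0.22 ± 0.05 (SE, adjusted p = 0.0034), and without high dose library 2 this was 0.19 with an adjusted p of 0.059. NR1H3, which encodes LXR alpha, was at 0.21 ± 0.06 (SE, adjusted p = 0.06) and did not pass. SCD, a fatty acid desaturase shared by LXR and SREBP1, was at 0.01 ± 0.05, and SMPDL3A, a phosphodiesterase, at -0.27 ± 0.14. The number of called members was 4 to 6 when any 1 library was left out.

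Cholesterol synthesis fell in 15 of 25 members, with 0 higher and a median log2 fold change of -0.28. Between the doses 21 of the 25 did not overlap, all lower, against 9.84% of all tested genes. HMGCS1 (ENSG00000112972, chr5:43289395-43313512, - strand), which makes HMG-CoA, was at 220.03, 193 and 186 CPM at the high dose and 307, 275 and 271 CPM at the medium dose. Library 1 was the highest at both doses, no library overlapped, and HMGCS1 fell by 0.51 ± 0.10 (SE, adjusted p = 0.0011) on the log2 scale.

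Falls were called at each later stage of the pathway. Of the mevalonate enzymes, MVK fell at -0.34 ± 0.09 (SE, adjusted p = 0.028) and MVD at -0.40 ± 0.08 (SE, adjusted p = 0.0021), while PMVK, between them, was at 0.02 ± 0.10 and did not pass. Of the isoprenoid enzymes, IDI1 was at -0.32 ± 0.08 (SE, adjusted p = 0.02) and FDPS at -0.31 ± 0.04 (SE, adjusted p = 6.4e-06). FDPS (ENSG00000160752, chr1:155308748-155320666, + strand) was at 136, 126 and 129 CPM at the high dose and 163, 157 and 164 CPM at the medium dose. Squalene is made and oxidised by FDFT1, at -0.21 ± 0.04 (SE, adjusted p = 0.0025), and SQLE, at -0.28 ± 0.07 (SE, adjusted p = 0.023).

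LSS (ENSG00000160285, chr21:46188141-46228824, - strand), which closes squalene epoxide into lanosterol, gave the smallest p of the list. It was at 107, 107 and 109 CPM with vehicle, 130.5, 132 and 137 CPM at the low dose, 129, 123 and 126 CPM at the medium dose and 96.3, 101 and 96.8 CPM at the high dose. The high dose libraries were the lowest of the 12, and the log2 fold change against the medium dose was -0.37 ± 0.03 (SE, adjusted p = 8.3e-11). After lanosterol, TM7SF2, NSDHL, EBP and SC5D fell, at -0.30, -0.24, -0.28 and -0.25. CYP51A1, MSMO1, HSD17B7 and DHCR7, of the same stretch, were all below 0 but did not pass, with log2 fold changes of -0.20, -0.25, -0.22 and -0.19.

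Of the regulators, INSIG1, which holds SREBPs in the endoplasmic reticulum and is itself an SREBP target, fell at -0.34 ± 0.08 (SE, adjusted p = 0.0079), and ACAT2, the acetyl-CoA thiolase at the start of the pathway, at -0.30 ± 0.06 (SE, adjusted p = 0.0025). SREBF2, which encodes SREBP2, was at -0.08 ± 0.04 and STARD4, a sterol carrier, at -0.15 ± 0.10, and neither passed. The number of called members was 8 without medium dose library 1, 8 without high dose library 2 and 9 without high dose library 3, against 15 with all libraries, and 13 with mitochondrial share in the fit. With replicate numbers as a block it was 20. The list's median stayed between -0.33 and -0.22 when any 1 library was left out. The sterol regulatory element was searched for in promoter windows in the same way, as the letters TCACNCCAC on both strands. Of 18 matched windows of the list 1 held them, that of SREBF2, against 1.15% of 27305 windows. The windows of HMGCS1, LSS, FDPS, INSIG1 and MVD, which fell, held no match. That says only that these letters are not in those windows.

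**Figure D2:**
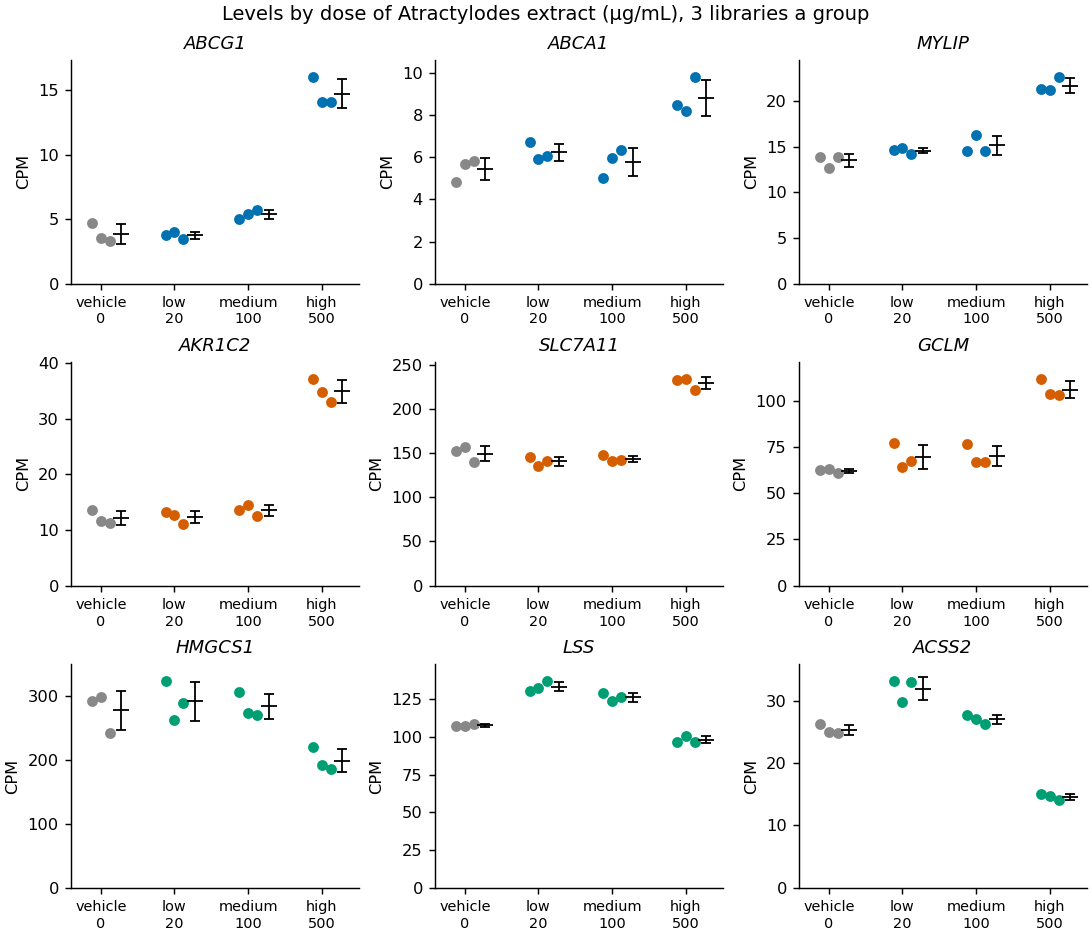
Levels of single genes in CPM are plotted for each library of the vehicle and of the low, medium and high doses of Atractylodes, from left to right. Coloured and grey points are libraries, and the black marks beside them give the mean and SD (n = 3). In the upper and middle rows (ABCG1, ABCA1, MYLIP, AKR1C2, SLC7A11 and GCLM) the high dose libraries stand above all medium dose libraries, by more than 2-fold in ABCG1 and AKR1C2, and in the bottom row (HMGCS1, LSS and ACSS2) they stand below them.

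ACSS2 (ENSG00000131069, chr20:34872146-34927962, + strand), which makes acetyl-CoA from acetate, fell more than HMGCS1. It was at 26.3, 24.95 and 24.8 CPM with vehicle, 33.1, 29.7 and 32.99 CPM at the low dose, 27.7, 27.1 and 26.2 CPM at the medium dose and 14.99, 14.6 and 14.00 CPM at the high dose. Every high dose library was below all the others, and the log2 fold change against the medium dose was -0.89 ± 0.06 (SE, adjusted p = 1.3e-14). In fatty acid synthesis as a whole, 2 of 12 tested members rose and 2 fell, with a median of 0.01. ACLY, which makes acetyl-CoA from citrate, fell at -0.15 ± 0.03 (SE, adjusted p = 0.0053), and lost the call without medium dose library 1 (-0.13, adjusted p = 0.055) and without high dose library 2 (-0.13, adjusted p = 0.066). SREBF1 is also on this list, and ACSL3, an acyl-CoA synthetase, rose by 0.12 ± 0.03 (SE, adjusted p = 0.035). FASN, fatty acid synthase, was at -0.02 ± 0.05 and ACACA, acetyl-CoA carboxylase, at 0.01 ± 0.04, and neither passed.

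Of 12 PPAR targets 2 rose and 0 fell. PDK4, which shuts pyruvate dehydrogenase, was at 7.91, 9.58 and 7.88 CPM at the high dose and 5.80, 6.34 and 5.97 CPM at the medium dose, and rose by 0.49 ± 0.10 (SE, adjusted p = 0.0027). Without high dose library 2, the highest, PDK4 was at 0.39 with an adjusted p of 0.072.

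Transport and conjugation genes outside the NRF2 list also rose. ABCG2, the xenobiotic efflux pump BCRP, was at 119.96, 125 and 126 CPM at the high dose and 89.3, 93.4 and 90.9 CPM at the medium dose, and rose by 0.44 ± 0.05 (SE, adjusted p = 2.6e-09). It was 1 of 5 called among 15 other genes of xenobiotic metabolism, all higher, with UGT1A1 at 0.43 ± 0.07 (SE, adjusted p = 7.9e-05), UGT1A10, ABCC3 and CYP4F3, an omega-hydroxylase of leukotrienes, at 0.93 ± 0.19 (SE, adjusted p = 0.0025). Of 7 targets of the aryl hydrocarbon receptor 3 rose, namely NQO1, ALDH3A1 and UGT1A6, of which the first 2 are also on the NRF2 list. UGT1A6, a glucuronosyltransferase, rose by 0.47 ± 0.06 (SE, adjusted p = 8.2e-08). The UGT1A genes share their last exons, so the split of reads between them is uncertain.

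Lists of other stress genes held 0 to 3 calls each, against 1.45% of all tested genes called in either direction. Of 23 ATF4 targets 3 rose, namely SLC7A11, ASNS, which makes asparagine, at 0.25 ± 0.05 (SE, adjusted p = 0.00067), and SLC3A2, the partner chain of SLC7A11, at 0.22 ± 0.06 (SE, adjusted p = 0.029). SLC3A2 lost the call without high dose library 1 (0.18, adjusted p = 0.23), high dose library 3 (0.22, adjusted p = 0.078), medium dose library 2 (0.20, adjusted p = 0.18) or medium dose library 3 (0.21, adjusted p = 0.11). Of 18 chaperones of the endoplasmic reticulum 1 rose, HSPA5, at 0.18 ± 0.04 (SE, adjusted p = 0.0074), and its adjusted p was 0.086, 0.053 and 0.059 without high dose library 1, high dose library 2 and medium dose library 3. By edgeR, 11 of the 23 ATF4 targets and 7 of the 18 chaperones had an unadjusted p below 0.05, against 1696 of all 16445 tested genes. Of the same lists 11 and 10 did not overlap between the doses and were higher, and 1 and 0 were lower. Over all tested genes these shares were 9.32% higher and 9.84% lower. The 18 cytosolic tRNA synthetases, 12 heat shock genes and 6 metallothioneins and zinc exporters had 0 called members by edgeR and by DESeq2, with 1, 2 and 0 at an unadjusted p below 0.05.

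Lists of growth and identity genes held 1 to 3 calls each, against 1.45% of all tested genes called in either direction. Of 32 genes of DNA replication 1 rose, CDC6, which licenses origins, at 0.18 ± 0.04 (SE, adjusted p = 0.0062), and its adjusted p was 0.095 without high dose library 1 and 0.082 without medium dose library 2. Of 12 genes of Wnt targets and stem markers 1 rose, LGR5, the R-spondin receptor, at 0.26 ± 0.06 (SE, adjusted p = 0.0029), with an adjusted p of 0.061 without high dose library 2. Of 12 YAP and TEAD genes, TEAD1, a DNA-binding partner of YAP, rose by 0.26 ± 0.05 (SE, adjusted p = 0.0003), and VGLL1, a TEAD cofactor, fell, at -0.74 ± 0.16 (SE, adjusted p = 0.0044). Of 18 genes of MAPK feedback and the immediate early response 3 rose, led by FOSL1, an AP-1 subunit, at 0.38 ± 0.10 (SE, adjusted p = 0.049). The others were ERRFI1, an inhibitor of EGFR, at 0.19 ± 0.04 (SE, adjusted p = 0.0016), and PHLDA1 at 0.18 ± 0.05 (SE, adjusted p = 0.024). FOSL1 and PHLDA1 both lost the call without any 1 of the 6 libraries, with adjusted p of 0.062 to 0.24 for FOSL1 and 0.052 to 0.20 for PHLDA1. By edgeR, 5 of the 32 DNA replication genes and 4 of the 12 Wnt and stem genes had an unadjusted p below 0.05. So did 3 of the 12 YAP and TEAD genes and 6 of the 18 MAPK genes, against 1696 of all 16445 tested genes.

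Mucosal genes were called in single cases, against 1.45% of all tested genes called in either direction. MUC13, a membrane mucin, was at 108, 105 and 105 CPM at the high dose and 139.7, 128 and 129 CPM at the medium dose, and fell at -0.32 ± 0.06 (SE, adjusted p = 0.0013), as 1 of 15 genes of the secretory lineage. The 15 had a median log2 fold change of -0.12, with 4 above 0. By edgeR 6 of them had an unadjusted p below 0.05, against 1696 of all 16445 tested genes. Between the doses 6 did not overlap and were lower and 1 was higher, against 9.84% and 9.32% of all tested genes. VIL1, the brush border protein villin, fell at -0.17 ± 0.04 (SE, adjusted p = 0.0062), with adjusted p of 0.072 without high dose library 1 and 0.060 without medium dose library 2. CEACAM5, an adhesion protein of the same list of 16 enterocyte genes, rose by 0.50 ± 0.11 (SE, adjusted p = 0.0068), with adjusted p of 0.052 without high dose library 3, 0.11 without medium dose library 1 and 0.058 without medium dose library 2. Reads of CEACAM5 can be shared with its near copies. Of 21 genes of mitosis, 21 nuclear genes of oxidative phosphorylation and 27 interferon response genes 0 were called by edgeR and by DESeq2, with 0, 0 and 3 at an unadjusted p below 0.05. The 27 interferon response genes had a median log2 fold change of -0.14, with 4 above 0. Between the doses 8 of them did not overlap and were lower and 1 was higher, against 9.84% and 9.32% of all tested genes. The 25 genes of ribosome biogenesis had 0 called by edgeR and 1 by DESeq2, with 4 at an unadjusted p below 0.05. Autophagy and lysosome genes had 0 of 20 called by either tool and 6 at an unadjusted p below 0.05. The 13 genes of the mitochondrial genome had a median log2 fold change of 0.22, with 0 called by either tool and 1 at an unadjusted p below 0.05.

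The remaining lists held 1 or 2 falls each, against 0.687% of all tested genes called lower. ALDOC, an aldolase, was at 14.7, 14.3 and 15.7 CPM at the high dose and 20.4, 21.1 and 19.2 CPM at the medium dose, and fell at -0.44 ± 0.07 (SE, adjusted p = 8.6e-05), as 1 of 25 genes of hypoxia and glycolysis. BIRC3, an NF-kB target that restrains cell death, fell at -0.45 ± 0.11 (SE, adjusted p = 0.027) as 1 of 18, and its adjusted p was 0.059 to 0.22 without high dose library 2, high dose library 3, medium dose library 2 or medium dose library 3. Of 15 FOXO targets, CCNG2, a cyclin linked to cell cycle arrest, fell at -0.27 ± 0.06 (SE, adjusted p = 0.007), and SESN1, a stress-induced regulator of mTORC1 that was also 1 of 13 p53 targets, at -0.22 ± 0.06 (SE, adjusted p = 0.035). CCNG2 lost the call without high dose library 3, medium dose library 2 or medium dose library 3, with adjusted p of 0.060 to 0.079. SESN1 lost it without any 1 of the 6 libraries, with adjusted p of 0.062 to 0.24.

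Falls by size also included genes on none of the lists. SLC14A1, a urea transporter, was at 3.88, 2.68 and 3.31 CPM at the high dose and 5.68, 5.57 and 5.78 CPM at the medium dose, and fell at -0.79 ± 0.12 (SE, adjusted p = 2.5e-05). CLIC5, a chloride intracellular channel protein, was at 12.3, 11.99 and 12.6 CPM at the high dose and 18.3, 17.7 and 19.4 CPM at the medium dose, and fell at -0.59 ± 0.06 (SE, adjusted p = 2.6e-09). In neither gene did the doses overlap. ATP6V1B1, a subunit of the vacuolar proton pump, fell at -0.55 ± 0.09 (SE, adjusted p = 3.5e-05), SLC6A20, an imino acid transporter, at -0.51 ± 0.10 (SE, adjusted p = 0.0012), and MRAS, a RAS-family GTPase, at -0.61 ± 0.11 (SE, adjusted p = 0.00043). RNF144B, a ubiquitin ligase, fell at -0.56 ± 0.11 (SE, adjusted p = 0.0017) and LINC03040 at -0.85 ± 0.12 (SE, adjusted p = 3.2e-06).

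Other named genes of low level were less stable. MMP24, a membrane metalloproteinase, fell at -0.50 ± 0.10 (SE, adjusted p = 0.0028), with adjusted p of 0.059 and 0.055 without high dose library 1 and high dose library 2. CD200, an immune inhibitory ligand, fell at -0.50 ± 0.13 (SE, adjusted p = 0.026) and lost the call without any of high dose libraries 1 and 2 and medium dose libraries 1, 2 and 3, with adjusted p of 0.059 to 0.18. Of the rises, SLC38A4, an amino acid transporter, was at 0.72 ± 0.16 (SE, adjusted p = 0.0048), with adjusted p of 0.090 without medium dose library 1 and 0.061 without high dose library 3. PANX2, a pannexin, rose by 0.58 ± 0.12 (SE, adjusted p = 0.0025), with an adjusted p of 0.077 without high dose library 1. FTH1P10, a processed pseudogene of the ferritin heavy chain, was at 0.55 ± 0.14 (SE, adjusted p = 0.029). Its reads can come from FTH1, and it lost the call without high dose library 1, high dose library 3, medium dose library 2 or medium dose library 3, with adjusted p of 0.062 to 0.31.

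The step before it, of the same 5-fold size, changed 1 gene. Between the medium and low doses AKR1B10 rose, by 0.33 ± 0.06 (SE, adjusted p = 0.0066), and 0 genes fell, which is 0.00608% of the tested genes called, with 863 at an unadjusted p below 0.05. DESeq2 called AKR1B10 alone too. AKR1B10 was at 100.2, 92.4 and 91.97 CPM with vehicle, 106, 99.8 and 92.5 CPM at the low dose and 134, 123 and 117 CPM at the medium dose. Without medium dose library 1 or low dose library 3, edgeR called 0 genes. Over the medium against the low dose the median log2 fold change was 0.10 for NRF2 targets, 0.08 for LXR targets and -0.05 for cholesterol synthesis, while over the high against the medium dose the same medians were 0.36, 0.25 and -0.28. Both steps use the medium dose libraries, so their values are given side by side only.

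The difference between the steps was tested for itself, as the last step minus the first on the log2 scale, and 13 genes (0.0791%) passed, 11 with a more positive last step (0.0669%) and 2 with a more negative one (0.0122%). AKR1C2 changed by 1.37 ± 0.07 over the last step and 0.14 ± 0.08 over the first, a difference of 1.23 ± 0.14 (SE, adjusted p = 1e-07). AKR1C1 changed by 1.08 ± 0.06 over the last step and -0.02 ± 0.07 over the first, a difference of 1.10 ± 0.11 (SE, adjusted p = 1.7e-08). For AKR1B10 the difference was 0.66 ± 0.10 (SE, adjusted p = 7.3e-05), and for ACSS2, which was at -0.89 ± 0.06 over the last step and -0.24 ± 0.06 over the first, it was -0.65 ± 0.11 (SE, adjusted p = 0.00049). These 4 genes passed without any 1 of the 9 libraries.

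The other differences rested more on single libraries. SLC7A11 differed by 0.65 ± 0.12 (SE, adjusted p = 0.0026), with adjusted p of 0.063 without medium dose library 2 and 0.074 without medium dose library 3. ALDH3A1 differed by 0.57 ± 0.09 (SE, adjusted p = 0.00027), with an adjusted p of 0.054 without medium dose library 3, and ABCG2 by 0.42 ± 0.08 (SE, adjusted p = 0.011), with adjusted p of 0.17 and 0.18 without medium dose libraries 1 and 3. GCLM differed by 0.58 ± 0.11 (SE, adjusted p = 0.011) and lost the call without high dose library 1 (0.058), low dose library 1 (0.075), medium dose library 2 (0.36) or medium dose library 3 (0.42), the adjusted p in brackets. LSS differed by -0.29 ± 0.06 (SE, adjusted p = 0.019) and lost the call without high dose library 1 (0.069), high dose library 3 (0.051), low dose library 1 (0.075), medium dose library 1 (0.34) or medium dose library 3 (0.21).

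NQO1, UGT1A6 and AKR1C3 differed by 0.30, 0.46 and 0.67, each with an adjusted p of 0.039. NQO1 lost the call without each library but low dose library 3. UGT1A6 lost it without each but high dose library 3 and low dose library 3, and AKR1C3 without each but high dose library 3 and low dose library 2, with adjusted p of up to 0.61, 0.67 and 0.44. The last of the 13 was ME1, at 0.31 ± 0.06 (SE, adjusted p = 0.02), which was called without high dose library 3 or low dose library 2 and not without any other library. The number of genes that differed was 7 without high dose library 1, 7 without medium dose library 1, 8 without low dose library 1, 7 without medium dose library 2 and 4 without medium dose library 3.

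The LXR targets and 24 of the 25 genes of cholesterol synthesis did not pass this test. ABCG1 changed by 1.46 ± 0.11 over the last step and 0.52 ± 0.13 over the first, and the difference was 0.94 ± 0.22 (SE, adjusted p = 0.093), with a 95% interval of 0.50 to 1.38 before adjustment. MYLIP differed by 0.47 ± 0.13 (SE, adjusted p = 0.35) and ABCA1 by 0.72 ± 0.21 (SE, adjusted p = 0.42). Of the 25 genes of cholesterol synthesis 1, LSS, passed, and the others did not, with HMGCS1 at -0.47 ± 0.17 (SE, adjusted p = 0.81). Of the 28 NRF2 targets 9 passed, all with a more positive last step. With replicate numbers as a block 20 genes passed, among them MYLIP, HMGCS1, GCLC and TXNRD1, which did not pass without it, while UGT1A6 was no longer called. The block fits the same shift to same-numbered libraries of all 3 doses of Atractylodes, and of Poria, whose sample names share their first number. In their deviations from the dose mean, same-numbered high and low dose libraries correlated at 0.2347, -0.224 and -0.2336. Other numbers gave -0.2256 to 0.3641, so the pairing that the block assumes is uncertain for the low dose.

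**Figure D3:**
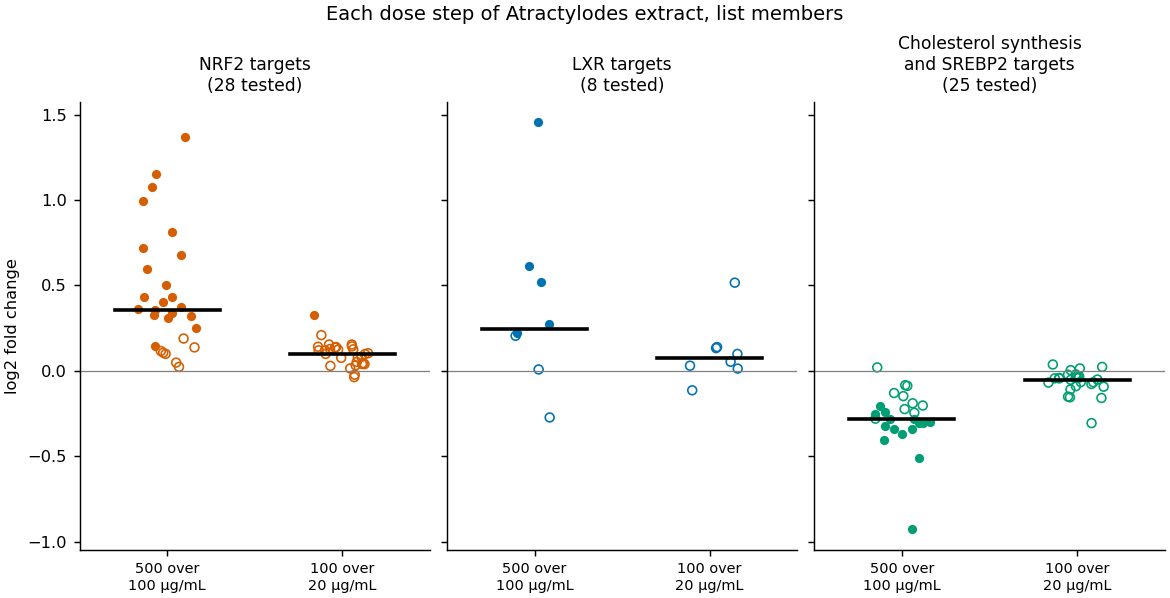
Each point is a tested member of the NRF2, LXR or cholesterol list, and the y axis gives its log2 fold change over the last dose step (500 over 100 µg/mL, left in each panel) and the step before it (100 over 20 µg/mL, right). Filled points passed the test and the black line is the list median, at 0.36 and 0.10 for NRF2 targets, 0.25 and 0.08 for LXR targets and -0.28 and -0.05 for cholesterol synthesis. The filled point of the earlier step is AKR1B10.

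The same step was compared with that of the other ethanol extracts at the same doses, which share no library with it. Poria raised 68 genes and lowered 27 between 500 and 100 µg/mL (0.578% of tested genes called), or 181 called with replicate numbers as a block. Ginseng raised 96 and lowered 75 (1.04%), or 304 called with the block. A fit of the compared libraries alone called 56 genes for Poria and 32 for Ginseng, and the overlaps that follow use the fit of all groups. Without high dose library 1, high dose library 2 or medium dose library 3, Poria had 45, 59 and 42, and without high dose library 1 or medium dose library 2, Ginseng had 78 and 110 called genes. Of the 125 rises with Atractylodes, 49 were also called with Poria, which is 39.2% of the Atractylodes rises and 72.1% of the Poria rises. With Ginseng the shared rises were 49 as well, 39.2% of the Atractylodes rises and 51.0% of the Ginseng rises. Of the 113 falls, 7 were shared with Poria, 6.2% of the Atractylodes falls and 25.9% of the Poria falls, and 39 with Ginseng, 34.5% of the Atractylodes falls and 52.0% of the Ginseng falls. No gene called with Atractylodes was called in the opposite direction with either.

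NRF2 targets rose with all 3 extracts. Of the 28, 21 rose with Atractylodes, 24 with Poria and 17 with Ginseng, with medians of 0.36, 0.41 and 0.27. In the test of the difference in steps 0 of the 28 passed against Poria, with 5 at an unadjusted p below 0.05, and 0 against Ginseng, with 6, and DESeq2 also called 0 in both. AKR1C2 rose by 1.37 ± 0.07 with Atractylodes, 1.16 ± 0.07 with Poria and 1.18 ± 0.08 with Ginseng. Its difference from Poria had a 95% interval of -0.01 to 0.42 and that from Ginseng one of -0.04 to 0.41. AKR1B10 rose by 0.99 ± 0.06 with Atractylodes, 0.90 ± 0.06 with Poria and 0.80 ± 0.06 with Ginseng, with intervals of the difference of -0.06 to 0.25 and 0.04 to 0.35. GCLM rose by 0.60 ± 0.06, 0.48 ± 0.06 and 0.39 ± 0.07 with the same 3 extracts. For ABCG2 the values were 0.44 ± 0.05 with Atractylodes, 0.16 ± 0.05 with Poria, which did not pass, and 0.40 ± 0.05 with Ginseng, and its difference from Poria was 0.28 ± 0.07 (SE, adjusted p = 0.12).

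LXR targets differed between extracts in single genes. Of the 8 tested, 5 rose with Atractylodes, while 0 were called with Poria and 0 with Ginseng by edgeR and by DESeq2, with 1 and 0 at an unadjusted p below 0.05, and the medians were 0.25, 0.08 and -0.02. ABCG1 was at 4.86, 4.02 and 3.42 CPM at the high and 4.18, 3.88 and 3.27 CPM at the medium dose of Poria, and at 3.02, 2.27 and 3.28 CPM at the high and 3.56, 3.34 and 2.77 CPM at the medium dose of Ginseng. These doses overlapped in both extracts. The Atractylodes step was larger than the Poria step by 1.34 ± 0.18 (SE, adjusted p = 1.4e-05) and than the Ginseng step by 1.64 ± 0.20 (SE, adjusted p = 1.3e-06), and both held without any 1 library. MYLIP differed from Poria by 0.52 ± 0.11 (SE, adjusted p = 0.017), but lost the call without Atractylodes high dose library 3 (adjusted p = 0.093), Atractylodes medium dose library 1 (0.11) or 3 (0.10), Poria high dose library 2 (0.094) or Poria medium dose library 2 (0.12). Its difference from Ginseng was 0.48 ± 0.11 (SE, adjusted p = 0.16). The differences of ABCA1, 0.66 ± 0.17 (SE, adjusted p = 0.27) from Poria and 0.57 ± 0.18 (SE, adjusted p = 0.92) from Ginseng, did not pass.

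Cholesterol synthesis fell with Atractylodes in 15 of 25 genes, with Ginseng in 2 of 25 and with Poria in 0 of 25, where DESeq2 also called 0 and 1 had an unadjusted p below 0.05. The medians were -0.28 with Atractylodes, 0.01 with Poria and 0.00 with Ginseng. LSS was at -0.37 ± 0.03 with Atractylodes, -0.03 ± 0.03 with Poria and -0.09 ± 0.03 with Ginseng, and its step differed by -0.33 ± 0.05 (SE, adjusted p = 5.6e-05) from Poria and -0.28 ± 0.05 (SE, adjusted p = 0.0043) from Ginseng. The difference from Poria held without any 1 library, and that from Ginseng was -0.25 with an adjusted p of 0.069 without Ginseng high dose library 1. FDPS differed from Poria by -0.33 ± 0.06 (SE, adjusted p = 0.007), which held without any 1 library. TM7SF2 fell with Ginseng too, at -0.20 ± 0.05 (SE, adjusted p = 0.044). HMGCS1 differed by -0.43 ± 0.14 (SE, adjusted p = 0.47) from Poria and -0.45 ± 0.14 (SE, adjusted p = 0.86) from Ginseng, and neither passed.

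ACSS2 differed from both. It was at -0.89 ± 0.06 with Atractylodes, -0.15 ± 0.06 with Poria, which did not pass, and -0.25 ± 0.06 with Ginseng, where it also fell, and its step was lower than that of Poria by -0.74 ± 0.09 (SE, adjusted p = 8.6e-07) and than that of Ginseng by -0.64 ± 0.09 (SE, adjusted p = 3.9e-05). These differences held without any 1 library. In all, 9 genes differed in step from Poria (0.0547% of tested genes, 0.0182% with a higher and 0.0365% with a lower step), among them ABCG1, MYLIP, ACSS2, LSS, FDPS, ALDOC and LINC03040, and 3 from Ginseng (0.0182%, 0.00608% higher and 0.0122% lower), namely ABCG1, ACSS2 and LSS. With replicate numbers as a block 21 genes differed from Poria and 6 from Ginseng. The 21 then included 11 of the 25 genes of cholesterol synthesis, and the 6 were ABCG1, MYLIP, ACSS2, HMGCS1, LSS and SQLE. The block fits the same shift to same-numbered Atractylodes and Poria libraries. Their deviations from the dose mean correlated at 0.2136, 0.1005 and 0.0442 at the high dose and 0.142, 0.0231 and -0.0068 at the medium dose. Other numbers gave -0.1409 to 0.0569 and -0.1451 to 0.1305, so the pairing assumed across extracts is uncertain. The 9 genes became 6 without Poria high dose library 1, the lowest number without any 1 library.

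**Figure D4:**
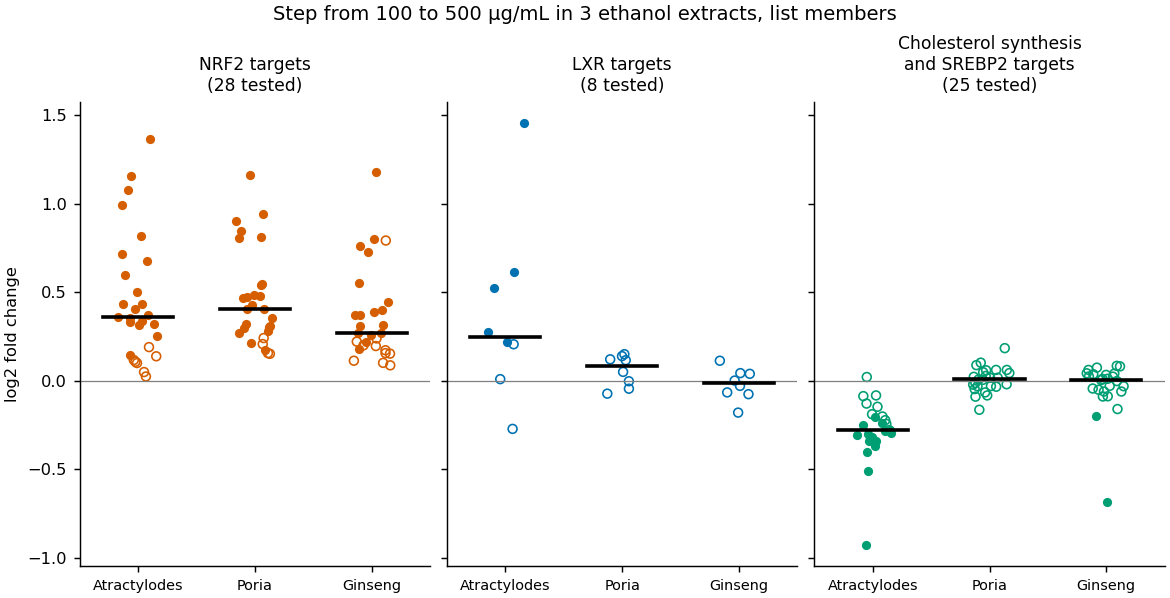
Each point is a tested member of the same 3 lists, and the y axis gives its log2 fold change at 500 over 100 µg/mL of Atractylodes, Poria and Ginseng, from left to right in each panel. Filled points passed the test and the black line is the list median. NRF2 targets lie above 0 in all 3 extracts, while ABCG1, the highest LXR target with Atractylodes at 1.46, lies above its values with Poria and Ginseng, and the median of cholesterol synthesis is at -0.28 with Atractylodes, 0.01 with Poria and 0.00 with Ginseng.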

How the data were processed

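RNA from the 60 HT29 libraries was extracted and read as 100 bp pairs, per the labels' protocols. The authors deposited expected counts for each gene. Per the submitters' processing notes, these came from RSEM 1.3.3, with FastQC 0.11.9, Trim Galore 0.6.5, STAR 2.7.3a and the build hg38. The annotation release was not given in the sources used here. RSEM divides reads that fit several near-identical genes by estimated probability. In each library 7.7% to 9.78% of values had decimals, and all were rounded to whole numbers. The table has 60675 gene identifiers, 0 entries that name no gene and 213 columns of other samples, which were not used here. Symbols were looked up in a gene name table (41209 identifiers matched), and coordinates taken from GENCODE 29.

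From these counts, 57 libraries in 19 groups entered 1 fit in edgeR 4.0.16 under R 4.3.3 (TMM factors of 0.956 to 1.031, filterByExpr, 16445 genes kept, quasi-likelihood F test, 38 residual degrees of freedom, common biological coefficient of variation 0.0501). The single Angelica libraries were left out. Calls were made at an adjusted p below 0.05, by the Benjamini-Hochberg method over all genes of a comparison. CPM scale each count to the TMM-adjusted library total. Errors are the standard error of the fit or the SD over 3 libraries.

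Named are the 12 largest called rises and falls with a symbol and no overlap between doses. Each had a mean of at least 5 CPM at whichever of the high and medium doses had the higher mean. Also named are the 3 called members of each list that changed most (or fewer), and the 6 rises and falls with the smallest p between dose steps. Other list members are given from the lists as wholes, and some genes that the rule picks or a list holds are counted but not reported here by name. The comparison, the 32 gene lists (540 entries, 504 tested) and these rules were chosen with earlier results of these data known. Same-numbered high and medium dose libraries of Atractylodes deviated together (r of 0.2532, 0.1007 and 0.1594 over 10690 genes, against -0.1804 to 0.0463 for other numbers). Those of Poria (0.1006 to 0.1601) and Ginseng (0.1683 to 0.4292) did too. Replicate numbers were used for pairing in the replicate block only, and the main fit compared group means without pairing. The block gives the same shift to same-numbered libraries of all extracts and doses whose sample names share their first number. Same-numbered libraries of the medium and low doses did not deviate together in every pair (-0.0424 to 0.1644). Counts of libraries of a dose differed by more than sampling noise (a chi-square over its degrees of freedom of 2.467 to 4.357 at the high and medium doses of Atractylodes, 7.816 to 13.025 at its low dose, and up to 12.644 for Poria and 12.908 for Ginseng). Each library was counted as 1 sample, and this spread does not show whether libraries stem from separate cultures. The alternatives tried were DESeq2 1.42.0, RLE factors, no filter on low counts, the replicate block, the mitochondrial share as a covariate, thinned counts, a fit of the compared libraries alone and each library left out. Scripts were tested on simulated data. Intervals cover the fit's error only.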

Additional observations from a re-analysis of the deposited data

Results flagged for a closer look

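The results here differed between 2 groups of libraries under the same contrast, each by the edgeR quasi-likelihood test of the difference itself with an adjusted p below 0.05. All values are differences of log2 fold changes over 5-fold dose steps.

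Between the last and the first dose step of Atractylodes, as last minus first, the difference was 1.23 for AKR1C2, 1.10 for AKR1C1, 0.67 for AKR1C3, 0.66 for AKR1B10, 0.65 for SLC7A11, 0.58 for GCLM, 0.57 for ALDH3A1, 0.46 for UGT1A6, 0.42 for ABCG2 and 0.30 for NQO1. It was -0.65 for ACSS2 and -0.29 for LSS. AKR1C2, AKR1C1, AKR1B10 and ACSS2 passed without any 1 of the 9 libraries, and the other 8 lost the call without at least 1.

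Between the last step of Atractylodes and that of Poria, as Atractylodes minus Poria, the difference was 1.34 for ABCG1 and 0.52 for MYLIP. It was -0.82 for LINC03040, -0.74 for ACSS2, -0.53 for ALDOC, -0.33 for LSS and -0.33 for FDPS. ABCG1, ACSS2, LSS and FDPS passed without any 1 of the 12 libraries. ALDOC lost the call without Poria high dose library 1 (adjusted p = 0.059), LINC03040 without that library (0.062) and Poria medium dose library 3 (0.059), and MYLIP without 5 of the 12, with adjusted p of up to 0.12.

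Between the last step of Atractylodes and that of Ginseng, as Atractylodes minus Ginseng, the difference was 1.64 for ABCG1, -0.64 for ACSS2 and -0.28 for LSS.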

How the results depend on the processing

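No result named here reversed under any alternative tried. The 238 genes called between the high and medium doses became 369 with no filter on low counts and 140 to 184 when 1 library was left out, and stayed within 1.5 times under the other alternatives (192 to 334), of which DESeq2 gave 259. Of the 238, 83 (34.9%) were called under every setting. Of the 55 genes that the naming rule picks 35 kept their call under all 13 alternatives, and DESeq2, RLE factors and the replicate block ended none. Thinning ended those of BIRC3, SESN1, CD200, VGLL1 and FTH1P10, the covariate those of SESN1 and FOSL1, no filter those of VIL1 and ACLY, and the 6 libraries alone that of FTH1P10.

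With no filter the other counts of called genes were 99 for the medium against the low dose (in place of 1), 114 for the difference between dose steps (13), 292 for the Poria step (95), 370 for the Ginseng step (171), 168 for Atractylodes minus Poria (9) and 105 for Atractylodes minus Ginseng (3). With the replicate block they were 334 for the high against the medium dose, and then 3, 20, 181, 304, 21 and 6 in the same order as above. With the compared libraries alone they were 0 for the medium against the low dose, 8 for the difference between dose steps, 56 for Poria and 32 for Ginseng, and with thinned counts 2 for the medium against the low dose and 8 for the difference between steps. DESeq2 gave 15 for Atractylodes minus Poria. When 1 library was left out they were 0 to 2, 4 to 12, 42 to 77, 78 to 176, 6 to 12 and 2 to 3. The block changed no other call among the named genes of the main comparison. The cause of these shifts was not tested, except that fewer libraries enter when 1 is left out. With 3 libraries a dose, changes of low genes are the least certain.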
